A study of Mus musculus with 36 samples.

Results

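The data compared BV-2 cells that had been exposed for 24 h to lipopolysaccharide (LPS) together with dimethyl fumarate (DMF) with resting BV-2 cells that had received the vehicle alone. BV-2 is an immortalised mouse microglial line, so all libraries come from 1 line in culture and not from brain tissue. The 3 libraries of the treated group, LPS_DMF_24h replicates 1 to 3, received LPS at 600 ng/mL and DMF at 30 µM in DMSO at 0.2%. The 3 libraries of the resting group, DMSO_24h replicates 4 to 6, received DMSO at 0.2% without LPS. The paper states that serum in the medium was lowered before drug treatment for its LPS experiments. It does not state the serum of the vehicle groups separately. The 6 libraries were chosen by these labels out of 36, and all 17627 genes of the pair were considered. The study placed its 36 libraries in 12 groups, which combined LPS, DMF, its metabolite monomethyl fumarate (MMF), cannabidiol and the vehicles at 4 h and 24 h. Since LPS and DMF were added to the same group, their shares in a difference from DMSO cannot be told apart within this pair. LPS alone and LPS with MMF at 24 h, which received the same LPS concentration, and the same pair at 4 h are therefore given beside it. Whether DMSO and the LPS groups shared culture days is not given in the sources used here, and if they did not, treatment and culture batch cannot be told apart in any comparison with DMSO.

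Microglia are the resident macrophages of the brain. They sense LPS through CD14, MD-2 and TLR4, and signalling from this receptor releases NF-kB from its inhibitors and induces cytokines, chemokines and an interferon response. DMF is an electrophilic ester used in multiple sclerosis that modifies KEAP1 on cysteines, which lets the transcription factor Nrf2 accumulate and induce genes for glutathione and thioredoxin metabolism and for haem and iron handling.

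The 6 libraries held 14110424 to 22774814 counted reads, and LPS with DMF replicate 3 was the deepest. Mitochondrial genes took 2.06 to 2.27% of the reads. Values are normalized counts, that is, reads per gene divided by the library's size factor, and they are not corrected for gene length. The microglial origin was checked with 10 lineage markers, of which 10 were measured above the filter. Csf1r, the receptor for colony-stimulating factor 1, averaged 8749 ± 1763 in DMSO and 13132 ± 1886 in LPS with DMF (SD, n = 3). The defining markers of T cells and astrocytes did not reach a normalized count of 10 in 3 libraries, and among neuron markers only Map2 and Gad1 did so. Of the oligodendrocyte markers Mbp was present at 1274 ± 122 in DMSO and 1081 ± 56.8 in LPS with DMF, and of 5 endothelial markers tested 1 was called, Vwf, which fell from 509 to 252 on average, a log2 change of -1.01 ± 0.09 (SE, adjusted p = 1.2e-05). The other endothelial markers Cdh5, Flt1, Kdr and Tek were not called, at 1.01, 0.16, -0.10 and -0.79. The part of these transcripts in the other results was not tested.

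After 24 h the treated cells differed from resting cells in 4685 of 11649 genes tested, that is 40.2% of them, at a Benjamini-Hochberg adjusted p below 0.05 in limma. Of these, 2326 were higher (20% of the genes tested) and 2359 were lower (20.3%). The rises were larger than the falls, since 484 genes rose and 268 fell by more than 1 on the log2 scale, and 30 rose and 6 fell by more than 3. In 6047 genes (51.9%) no library of one group lay within the range of the other. Since such a share of all genes changed, the count of a gene list is read against these percentages.

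**Figure D1:**
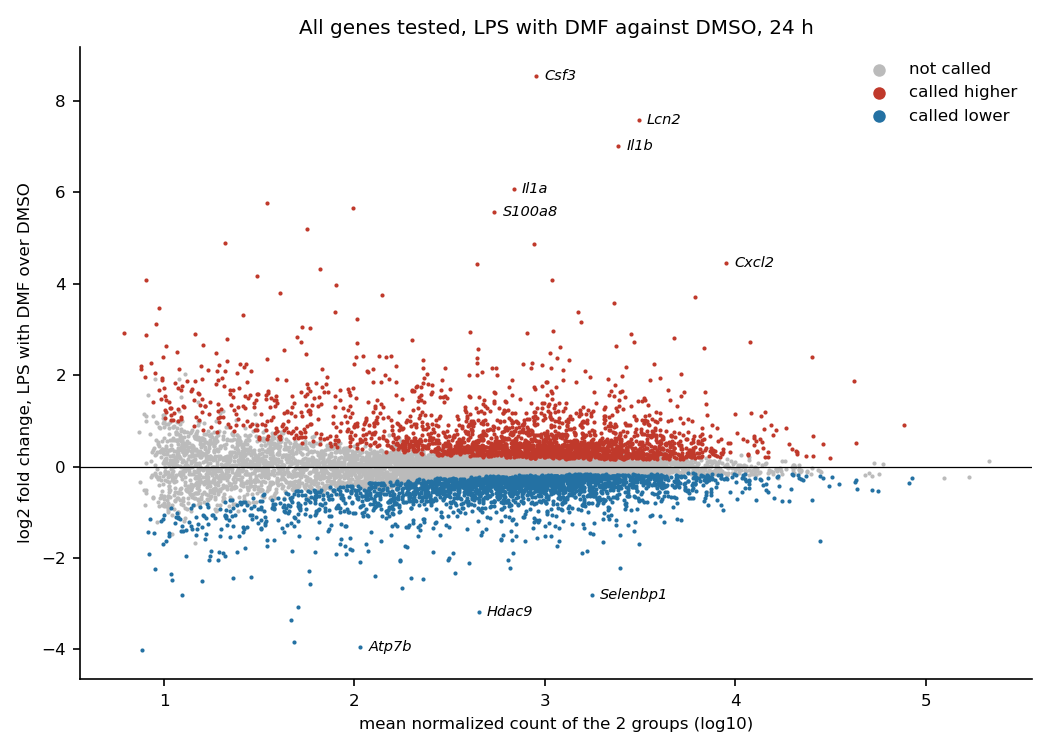
Each point is 1 of the 11649 genes tested, with the mean normalized count of both groups (log10) on the horizontal axis and the log2 fold change of LPS with DMF over DMSO at 24 h on the vertical axis. Called genes are coloured, and the rises reach further from 0 (Csf3 at 8.55) than the falls (Atp7b at -3.94).

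Most of the largest rises were those of secreted inflammatory proteins. Csf3, which encodes the granulocyte growth factor G-CSF (chr11:98592089-98594455 in GRCm39), had normalized counts of 1107, 2089 and 2188 in the LPS with DMF libraries and of 2.98, 4.53 and 3.39 in DMSO. The groups were far apart, with a log2 change of 8.55 ± 0.25 (SE, adjusted p = 2.2e-08). Lcn2, a siderophore-binding protein of the acute phase, lay at 4956, 6309.9 and 7276 against 25.8, 36.3 and 31.6, a log2 change of 7.58 ± 0.15 (SE, adjusted p = 9.8e-10). Il1b, the proform of interleukin-1 beta, stood at 3326, 5499.6 and 5639.6 against 18.9, 60.1 and 39.6, and Il1a at 980.5, 1387 and 1688 against 14.9, 20.4 and 21.5. Their log2 fold changes were 7.0 ± 0.34 (SE, adjusted p = 3.8e-07) and 6.07 ± 0.20 (SE, adjusted p = 4.8e-08), and every treated library exceeded every resting one. Among the 12 largest rises, replicate 1 of LPS with DMF was the lowest of its group in all but Il36a and Il6. Leaving out any single library kept the calls of Il1b and Cxcl2, whereas Csf3, low in DMSO, kept its call without each DMSO library and did not pass the filter without an LPS with DMF library, so it was not tested there.

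S100a8, a calcium-binding alarmin of myeloid cells, rose from 28.8, 24.9 and 11.3 in DMSO to 637, 1484 and 1068, a log2 change of 5.57 ± 0.35 (SE, adjusted p = 1.5e-06). The interleukin-1 family members Il36a and Il36g rose by 5.67 and 4.87 on the log2 scale, and Il6 by 5.2, to 103, 103 and 126 from 2.98, 1.13 and 2.26. Among chemoattractants, Cxcl2, a ligand for neutrophils, lay at 11547, 19522 and 20407 against 629.5, 970.4 and 720.0, a log2 change of 4.45 ± 0.21 (SE, adjusted p = 3.2e-07). Ccl7, a monocyte chemoattractant, rose by 4.43, and Mmp3, a matrix metalloproteinase, by 4.31. Urah, an enzyme of urate breakdown, was at 54.6, 68.3 and 83.7 in the treated libraries and at 0.993, 0 and 0 in DMSO. The Urah value in DMSO rests on 1 library with any read, and its fold change is set by the pseudocount. In LPS alone each gene of this paragraph was also called above DMSO, from 1.76 for Mmp3 to 5.74 for Urah. Il36a, Il6, Mmp3 and Urah were below a normalized count of 10 in each DMSO library. They passed the filter through the LPS groups alone, so in both comparisons with DMSO they could only be called higher. LPS with DMF exceeded LPS in S100a8 by 2.77, Mmp3 by 2.55, Cxcl2 by 1.58 and Ccl7 by 1.15. It also did so in Il36g by 1.14, Il6 by 0.80 and Il36a by 0.57, and Urah was not called (0.03, adjusted p = 0.94).

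**Figure D2:**
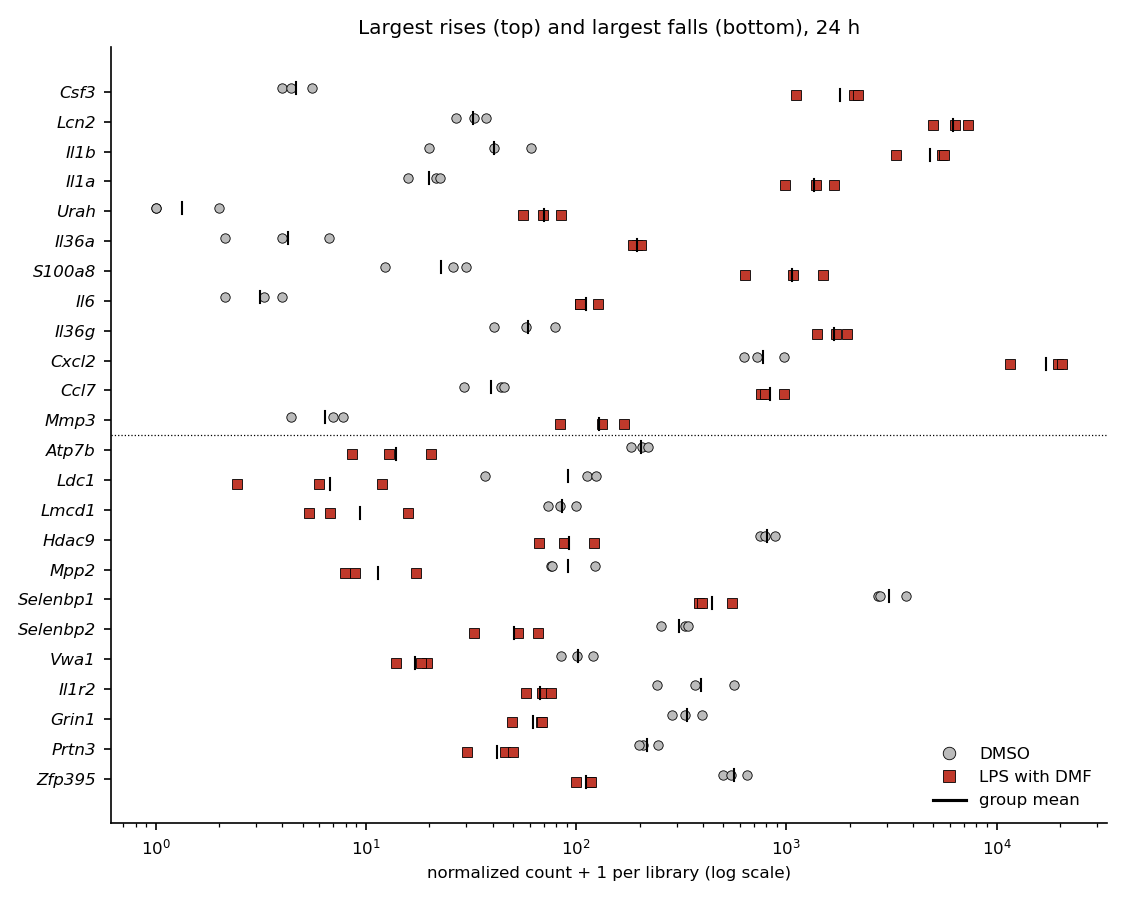
Each point is the normalized count plus 1 of 1 library on a log axis, for the 12 genes that rose most and the 12 that fell most, and vertical bars are group means. In each of the 24 genes the 3 LPS with DMF libraries (squares) lie apart from the 3 DMSO libraries (circles), as the choice of these genes required.

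Of 17 cytokines and colony-stimulating factors, 15 passed the filter of a normalized count of 10 in 3 libraries, 3 of them (Csf2, Csf3 and Il6) through the treated group alone, so that these could only be called higher. The other 12 were all called higher than in resting cells, with a median log2 fold change of 1.46 against 0.00 over all genes. This list holds genes that the study had named from these libraries, so its direction is not independent evidence. The same holds for the lists below of chemokines, NF-kB, antigen presentation and costimulation, and Nrf2. Tnf, the classical early macrophage cytokine, rose from 1427, 1629 and 1507 to 5829, 5123 and 5946, a log2 change of 1.89 ± 0.08 (SE, adjusted p = 1.9e-07). Il1rn, the secreted antagonist of the interleukin-1 receptor, rose with its agonists, by 2.25. Il23a, Lif and Csf1 rose by 1.14, 1.62 and 0.69, and Osm by 0.83. Tnfsf9 and Ltb rose least, by 0.43 and 0.46. Il10 and Il12b were below the filter, with means of 8.86 and 4.95 in the treated group.

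In LPS without drug, 10 of these 15 cytokines were called higher than DMSO and 0 lower (12.1% and 10.6% of all genes tested, 22.7% together). Csf3 and Il6 are among the 10. Both were below a normalized count of 10 in each DMSO library, so they could only be called higher. Against LPS alone, LPS with DMF had 9 of them higher and 2 lower, where 2926 of 11670 genes (25.1%) were called, 11.9% higher and 13.2% lower, and 4566 with the replicate number as a block (18.3% higher and 20.8% lower). Csf3 was higher in LPS with DMF than in LPS by 1.95 (adjusted p = 6.8e-04), Il1a by 1.0 (adjusted p = 0.0021) and Il1b by 0.93 (adjusted p = 0.0077). Lif, Osm, Csf1 and Il23a exceeded LPS alone by 1.2, 1.13, 0.99 and 1.06, and they were not called between LPS alone and DMSO, where their log2 fold changes were 0.41, -0.30, -0.30 and 0.07. Tnf was not called between LPS with DMF and LPS (0.22, adjusted p = 0.064, unadjusted 95% interval 0.05 to 0.39), but was called higher with the replicate block (adjusted p = 0.01). Il27 and Ltb were above DMSO but lower than in LPS alone, with log2 differences from LPS of -0.77 (adjusted p = 0.014) and -0.32 (adjusted p = 0.024). The comparisons with LPS and with DMSO share the LPS with DMF libraries, and those of LPS and of LPS with DMF against DMSO share the DMSO libraries.

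Of 12 chemokines tested, Ccl6 passed the filter through the treated group alone, and of the other 11, 10 were called higher and 0 lower, with a median log2 fold change of 1.64. Ccl2, which recruits monocytes, rose from 748, 515 and 746 to 4726, 4233 and 6087, and Cxcl3 from 294, 365 and 248 to 1852, 3478 and 3016. The log2 fold changes were 2.91 ± 0.16 (SE, adjusted p = 6.6e-07) and 3.17 ± 0.21 (SE, adjusted p = 2.1e-06), and both genes were also above LPS alone, by 0.80 and 1.64. Cxcl10, an interferon-induced ligand of CXCR3, rose by 1.85 over DMSO and stood at -0.02 (adjusted p = 0.97) relative to LPS. Cxcl14 was not called, at -0.14 ± 0.09 (SE, adjusted p = 0.25).

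Among acute-phase proteins and inflammatory enzymes, 12 of 14 were called higher and 1 lower, with a median of 2.49. Ptgs2, the inducible cyclooxygenase, rose from 6154, 8912 and 9161 to 31044, 47729.5 and 48759 with a log2 change of 2.39 ± 0.18 (SE, adjusted p = 5.6e-06). Nos2, the inducible nitric oxide synthase, rose from 455, 1143 and 752 to 3460.0, 7228 and 4508, or by 2.72, and Acod1, which makes itaconate, by 3.71. Neither Nos2 nor Lcn2 was called against LPS alone (-0.46, adjusted p = 0.19 and 0.35, adjusted p = 0.18), but both were with the replicate block, Nos2 lower (adjusted p = 3.2e-04) and Lcn2 higher (adjusted p = 0.0068). Saa3 and Cybb, a subunit of the NADPH oxidase, were above DMSO by 2.73 and 1.5 but below LPS alone, with log2 differences of -0.87 (adjusted p = 0.024) and -0.58 (adjusted p = 0.04). Hp, haptoglobin, was not called, at 960.2, 1641 and 1428 in DMSO and 1673, 1836 and 1407 with LPS and DMF, groups that overlapped (log2 fold change 0.31 ± 0.17 SE, adjusted p = 0.17). In LPS alone Hp was 2.36 (adjusted p = 1.2e-05) above DMSO, and LPS with DMF was -2.06 (adjusted p = 2.3e-05) relative to LPS. Arg1, arginase 1, fell from 35.7, 57.8 and 52.0 to 4.97, 11.9 and 8.58, a log2 change of -2.43 ± 0.34 (SE, adjusted p = 3.0e-04).

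**Figure D3:**
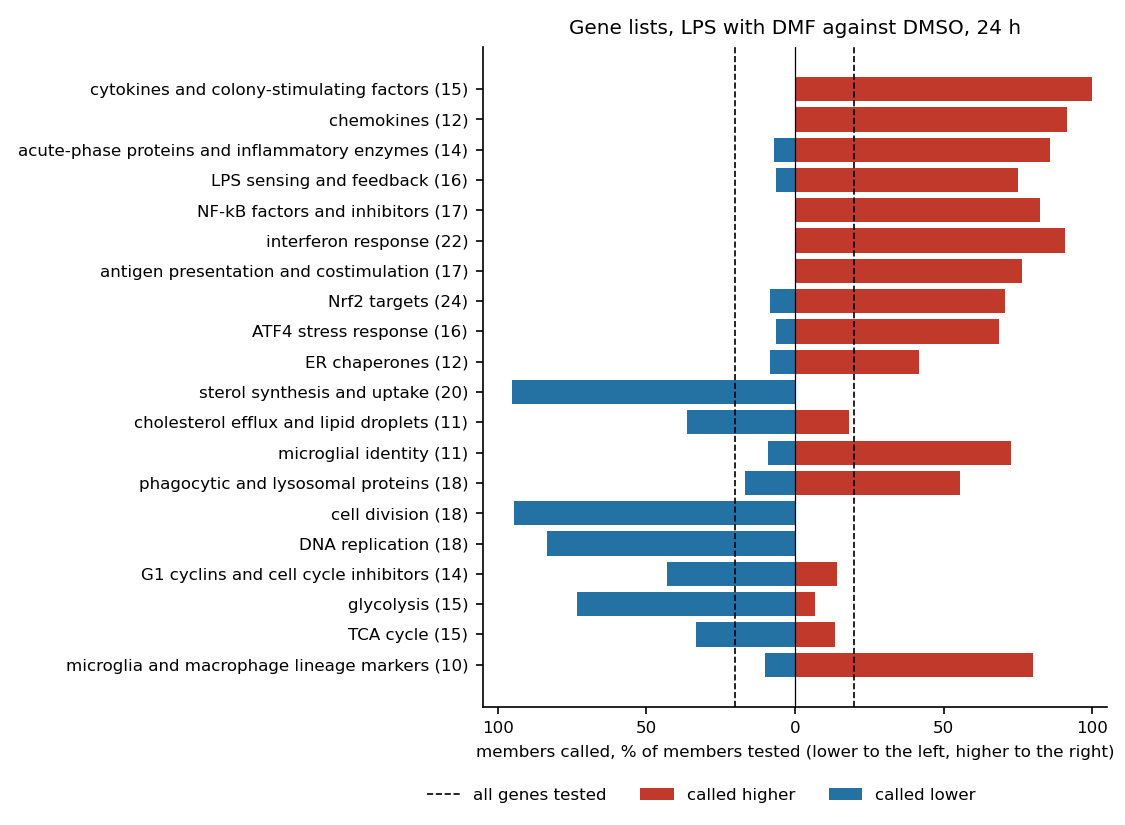
Bars give, for each gene list with at least 10 members tested (number in brackets), the percentage of tested members called higher (right) or lower (left) in LPS with DMF than in DMSO at 24 h, and dashed lines give the same for all genes tested, 20% and 20.3%. The cytokine and chemokine bars include 3 and 1 members that passed the filter through the treated group alone. The inflammatory lists lie to the right, and sterol synthesis, cell division, DNA replication and glycolysis lie to the left.

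Receptors and feedback inhibitors of the LPS pathway were mostly higher. Of 16 genes for LPS sensing and feedback, 12 were called higher and 1 lower, with a median of 0.54. Cd14 rose from 7555, 8879.6 and 9695 to 15749, 20582 and 19864, and Tlr4 from 708, 761 and 882 to 1099, 1177 and 1252, with log2 fold changes of 1.1 ± 0.11 (SE, adjusted p = 3.9e-05) and 0.59 ± 0.09 (SE, adjusted p = 5.5e-04). Tlr4 was not called in LPS alone against DMSO (-0.19, adjusted p = 0.23) and was higher in LPS with DMF than in LPS by 0.77 (adjusted p = 3.7e-04). The feedback inhibitors Socs3, Socs1 and Irak3 rose by 1.85, 1.59 and 1.74, and Tlr6 fell by 0.40.

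Of 17 NF-kB factors and inhibitors, 14 were called higher and 0 lower, with a median of 0.86. The members with the largest rises included Ikbke (2.11), Nfkbiz (2.09), Traf1 (1.99) and Bcl3 (1.88), and Nfkb1, which encodes p105 and p50, rose from 1359, 1439 and 1259 to 3757, 3970.1 and 3979. Rela, Ikbkb and Tnfaip3 were not called, at 0.15, 0.15 and -0.23. Against LPS alone 1 member was higher, Rela at 0.41 (adjusted p = 0.0096), and 1 was lower, Tnfaip3, the deubiquitinase A20, at -0.63 (adjusted p = 0.0074). With replicate as a block, the counts were 3 higher and 4 lower of 17, near the 18.3% and 20.8% of all genes under that block.

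Of the interferon-response genes, 20 of 22 were called higher and 0 lower, with a median of 1.24. Isg15, a ubiquitin-like modifier, rose from 101, 134 and 139 to 532, 1009 and 744, and Rsad2, viperin, from 419, 560.0 and 339 to 1597, 2891 and 2180.5. The log2 fold changes were 2.57 ± 0.20 (SE, adjusted p = 7.5e-06) and 2.33 ± 0.21 (SE, adjusted p = 1.7e-05), and both were above LPS alone, by 0.99 and 1.09. Irf7, a transcription factor of the pathway, rose by 1.12, and Irf1 was not called (0.32 ± 0.12 SE, adjusted p = 0.066). In LPS alone 21 of the 22 were above DMSO, and LPS with DMF had 5 higher and 0 lower than LPS (10 and 1 with the replicate block).

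For antigen presentation and costimulation, 13 of 17 genes were called higher, with a median of 0.62. Cd86, a costimulatory ligand, rose from 402, 487 and 419 to 1249.7, 1788 and 1698, a log2 change of 1.84 ± 0.13 (SE, adjusted p = 3.4e-06), and exceeded LPS alone by 0.93 (adjusted p = 0.0012). Cd80 and Cd40 rose by 1.21 and 0.80, and Cd274, which encodes PD-L1, by 1.02. The class I genes H2-D1 and B2m rose by 0.37 and 0.32, and H2-K1 was not called (0.19), although reads of H2-D1 and H2-K1 may be split between near-identical sequences.

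Sterol synthesis moved in the opposite direction from that in LPS alone. Of 20 genes for sterol synthesis and uptake, 19 were called lower and 0 higher in LPS with DMF than in DMSO, with a median of -1.12. In LPS alone 14 were higher and 0 lower than in DMSO, with a median of 0.37. Directly against LPS, all 20 were lower in LPS with DMF, with a median of -1.46. Hmgcs1, HMG-CoA synthase, had 2378, 2447 and 2397 normalized counts in DMSO and 3238, 3274 and 3193 in LPS under size factors common to 4 groups at 24 h. It had 943, 1006 and 876 in LPS with DMF and 2803, 2984 and 2997 in LPS with MMF. Each LPS with DMF library lay below every library of the other groups.

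The falls against DMSO included early and late steps of the pathway. Early steps were Hmgcs1 (-1.35 ± 0.07 SE, adjusted p = 4.5e-07), Mvk (-1.09), Mvd (-1.25), Idi1 (-0.90) and Fdps (-1.07). The committed sterol steps Fdft1, Lss and Cyp51 fell by 1.24, 1.47 and 1.15 on the log2 scale, and Dhcr7, a late step to cholesterol, fell from 1413, 1521 and 1143 to 518, 399 and 455, or by 1.57. Insig1, which retains the SREBP escort protein SCAP in the endoplasmic reticulum, fell by 1.29, and Srebf2, which encodes SREBP-2, by 0.62.

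**Figure D4:**
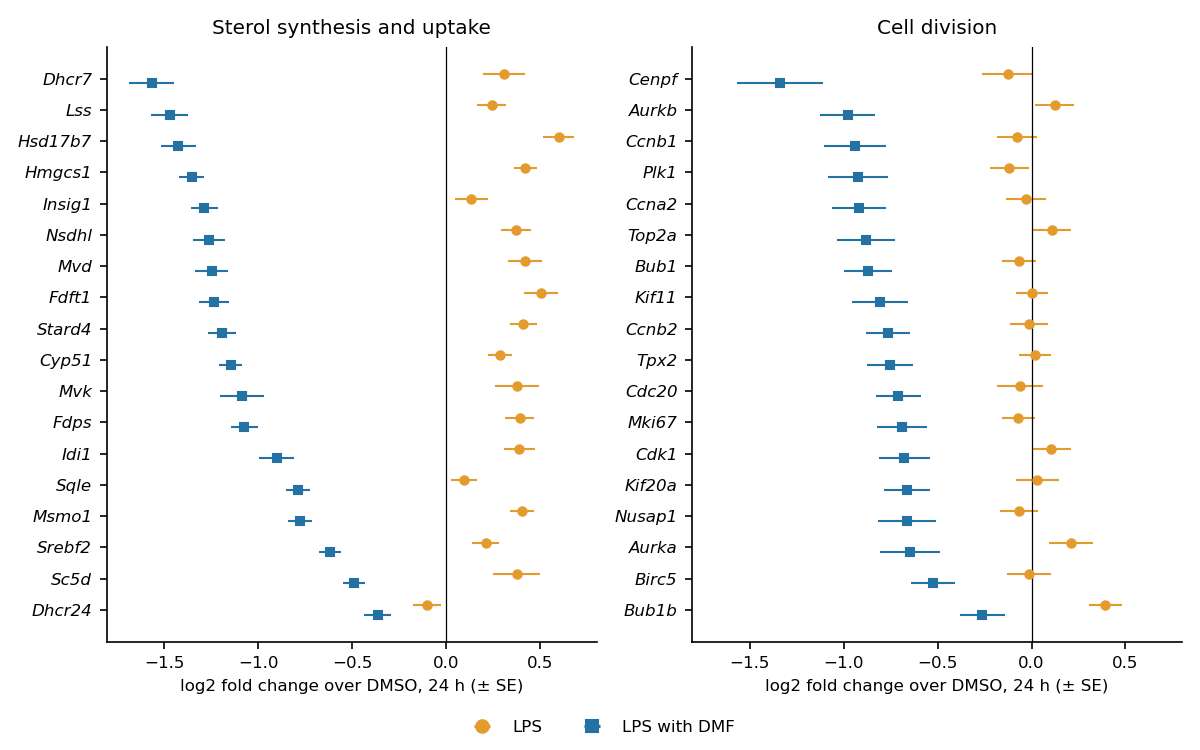
Points are log2 fold changes over the same 3 DMSO libraries at 24 h, with limma standard errors, for LPS (circles) and LPS with DMF (squares), for the tested genes of 2 lists that are reported by name. In the sterol list the squares lie below 0 and nearly all circles above it, and in the cell division list the squares lie below 0 while the circles scatter around it.

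Since the sterol genes moved together, their promoters were searched in RefSeq windows on GRCm38.p6, from 250 bases before the annotated start up to the start, for TCACNCCAC, a form of the sterol regulatory element, on both strands. Of 13 list members with a window, 1 held it (7.69%), and of all 27025 genes with a window, 331 did (1.22%). Of the Nrf2 and ATF4 lists given below, 1 of 19 (5.26%) and 0 of 15 members with a window held it. The sterol list member was Hmgcs1, chosen for display after its values were seen. The 150 bases before its start (chr13:119690201-119690350, plus strand) are given with the match in capitals. A match is a description of the letters and not a measured site.
Hmgcs1: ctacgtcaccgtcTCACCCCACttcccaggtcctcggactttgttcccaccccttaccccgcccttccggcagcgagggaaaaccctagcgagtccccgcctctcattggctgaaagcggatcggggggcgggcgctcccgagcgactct

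The 2 cholesterol exporters in the list for efflux and lipid droplets did not follow the sterol list. Abca1 and Abcg1, the exporters of cholesterol induced by LXR, rose from 1884, 2627 and 3069.8 to 3793, 4343 and 4136 and from 1098, 1567 and 1363 to 2156, 2406 and 2326, with log2 fold changes of 0.72 ± 0.14 (SE, adjusted p = 0.0026) and 0.79 ± 0.11 (SE, adjusted p = 3.3e-04). Both lay above LPS alone as well, by 1.34 and 0.92. In the list of 11 genes for efflux and lipid droplets, 2 were higher and 4 lower, with a median of -0.05. Over all genes tested 20% were higher and 20.3% lower, so the 2 higher are not read as a result about the list. The lower ones were the desaturases Scd1 (-0.74) and Scd2 (-0.49), Apoe (-0.46) and Plin2 (-0.35), whereas Fasn and Srebf1 were not called (-0.05 and 0.00).

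Cell division genes were lower than in resting cells, with 17 of 18 called lower and 0 higher (median -0.76). Top2a, the topoisomerase of dividing cells, fell from 6836, 5869 and 5452 to 4362, 2677 and 3001, and Cenpf, a kinetochore protein, from 1987, 1534 and 1491 to 1018, 469.7 and 583. The log2 fold changes were -0.88 ± 0.15 (SE, adjusted p = 0.0012) and -1.34 ± 0.23 (SE, adjusted p = 0.0011). Mki67 fell by 0.69, the cyclins Ccna2 and Ccnb1 by 0.92 and 0.94, and Bub1b was not called (-0.26 ± 0.12 SE, adjusted p = 0.11). In LPS alone, 0 of the 18 were lower and 1 higher than in DMSO (median -0.01). Against LPS alone all 18 were lower in LPS with DMF, with a median of -0.80. In bulk libraries, fewer dividing cells and less of these transcripts per cell cannot be told apart.

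Of the DNA replication genes, 15 of 18 were called lower, with a median of -0.49. Mcm7, a subunit of the replicative helicase, fell by 0.80, Rrm2, of ribonucleotide reductase, by 0.61, and Tyms was not called (0.00). Among 14 G1 cyclins and cell cycle inhibitors, 6 were lower and 2 higher. Ccnd1, cyclin D1, fell from 10874, 10269 and 12347 to 9142, 6197 and 7562 (-0.56 ± 0.12 SE, adjusted p = 0.0045), and the inhibitor Cdkn1a was not called (0.17 ± 0.08 SE, adjusted p = 0.12).

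Glycolytic genes were also lower, with 11 of 15 called lower, 1 higher and a median of -0.37. Pfkp, a phosphofructokinase, fell from 11226, 12160.3 and 10793 to 5619.6, 6156 and 5806, a log2 change of -0.96 ± 0.07 (SE, adjusted p = 2.6e-06), and Ldha, lactate dehydrogenase A, fell by 0.52. Pfkfb3, which makes an activator of phosphofructokinase, was the member that rose, by 0.28. In LPS alone 7 of the 15 were below DMSO, and 2 were lower in LPS with DMF than in LPS (4 lower and 1 higher with the replicate block). Over all genes, 13.2% were lower in LPS with DMF than in LPS, and 20.8% with that block. Of 15 TCA cycle genes 5 were lower and 2 higher, where 20.3% and 20% of all genes were, with a median of -0.12. Fh1, fumarate hydratase, which uses fumarate, fell from 2675, 2539 and 2614 to 1958, 1829 and 1897 (-0.46 ± 0.06 SE, adjusted p = 1.5e-04), and was lower than in LPS alone, at -0.61 (adjusted p = 0.0011).

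Nrf2 targets were above resting cells in part at 24 h, with 17 of 24 called higher, 2 lower and a median of 0.60. Slc7a11, the cystine importer that feeds glutathione synthesis, rose from 1520.2, 1769.6 and 1685 to 4909, 7083 and 7237, a log2 change of 1.93 ± 0.13 (SE, adjusted p = 2.6e-06). Srxn1, sulfiredoxin, rose from 756, 900.1 and 962 to 1354, 1985 and 2109.7, and Prdx1, a peroxiredoxin, from 7011, 7906 and 7115 to 13202, 18535 and 18363. The log2 fold changes were 1.04 ± 0.15 (SE, adjusted p = 3.9e-04) and 1.17 ± 0.12 (SE, adjusted p = 3.5e-05), without overlap between groups. Blvrb, biliverdin reductase B, rose by 1.74, Gclm, the modifier subunit of glutamate-cysteine ligase, by 1.0, and Cat, catalase, by 0.95. Gclc, the catalytic subunit of glutamate-cysteine ligase, was not called (0.04 ± 0.07 SE, adjusted p = 0.64). Hmox1, haem oxygenase 1, was below resting cells, at 5141, 8118 and 7094 against 8253, 9338 and 9623 (-0.44 ± 0.14 SE, adjusted p = 0.026). The Hmox1 call was lost without LPS with DMF replicate 3 or DMSO replicate 5 or 6, with adjusted p of 0.055, 0.075 and 0.094. Tkt, transketolase, was the other member called lower (-0.15 ± 0.05 SE, adjusted p = 0.044), a call that each leave-one-out fit but 1 lost. Of the iron store, Fth1 rose by 0.91 and Ftl1 by 0.34, with pseudogenes that may share their reads.

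In LPS alone 7 of these 24 genes were above DMSO and 3 below it, and LPS with DMF had 12 higher and 1 lower than LPS (18 and 1 with the replicate block). Slc7a11, Osgin1 and Srxn1 exceeded LPS by 1.54, 1.5 and 1.18. Me1, malic enzyme, was lower than in LPS, at -0.49 (adjusted p = 0.0093). Hmox1 was lower in LPS alone than in DMSO too, at -0.62 (adjusted p = 0.0038), and was not called between LPS with DMF and LPS (0.17, adjusted p = 0.47), but was called higher with the replicate block (adjusted p = 0.032).

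The promoter of Slc7a11 is shown because this gene had the largest rise in the Nrf2 list and is also known as a target of ATF4. The antioxidant response element was searched as TGACNNNGC and the ATF4 element as TGATGCAA, on both strands of the same RefSeq windows. TGACNNNGC was present for 4 of 19 Nrf2 list members with a window (21.1%) and for 11.5% of all genes, and also for 3 of 15 ATF4 genes (20.0%) and 2 of 13 sterol genes (15.4%). TGATGCAA was present for 2 of 15 members of the ATF4 list (13.3%) and for 0.918% of all genes. It was also present for 1 of 19 Nrf2 list members (5.26%), Slc7a11 itself, and for 0 of 13 sterol genes. Slc7a11 held TGATGCAA 2 times, on opposite strands, marked in capitals in the 150 bases before its start (chr3:50443614-50443763, minus strand of GRCm38.p6). These 150 bases hold TGACNNNGC on neither strand, and the rest of the window is not shown.
Slc7a11: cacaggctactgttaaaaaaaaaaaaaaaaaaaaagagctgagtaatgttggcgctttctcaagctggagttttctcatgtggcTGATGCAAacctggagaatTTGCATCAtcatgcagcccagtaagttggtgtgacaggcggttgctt

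ATF4 stress-response genes were higher, with 11 of 16 called higher, 1 lower and a median of 0.46. Trib3, a pseudokinase, rose from 1279.9, 1598 and 1144 to 2388, 2939.6 and 2891, and Psph, of serine synthesis, from 700.0, 617 and 621 to 1276, 1214 and 1429.6. Their log2 fold changes were 1.04 ± 0.12 (SE, adjusted p = 8.2e-05) and 1.01 ± 0.08 (SE, adjusted p = 9.7e-06). Slc3a2, which pairs with Slc7a11 and Slc7a5 in amino acid transporters, rose by 0.85, and Ddit4 fell by 0.80. In LPS alone 2 were above DMSO and 4 below it, and 10 were higher in LPS with DMF than in LPS. Ddit3, which encodes CHOP, stood at -1.21 (adjusted p = 1.1e-05) in LPS against DMSO and at 0.19 (adjusted p = 0.19) in LPS with DMF against DMSO, and differed between the drug group and LPS by 1.4 (adjusted p = 7.3e-05). Of 12 endoplasmic reticulum chaperone and folding genes 5 rose, among them Herpud1 (0.71) and Hspa5, which encodes BiP (0.49), and 1 fell, Hsp90b1 (-0.24). Of the zinc-response genes, Slc30a1, a zinc exporter, rose by 0.55 and Mt1, metallothionein 1, fell by 0.39.

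Genes that mark microglia were mostly higher, with 8 of 11 tested identity genes called higher and 1 lower (median 0.69). P2ry12, the purinergic receptor of homeostatic microglia, rose from 14.9, 22.7 and 47.5 to 97.4, 71.6 and 89.4 (1.72 ± 0.35 SE, adjusted p = 0.0029), and Tmem119 from 76.5, 90.7 and 88.2 to 140.1, 214 and 174 (1.02 ± 0.17 SE, adjusted p = 7.7e-04). Trem2 and Cx3cr1 were not called (0.08 and 0.69). Among lineage markers Adgre1, which encodes F4/80, rose from 694, 1187 and 1077 to 3532, 4878 and 4704 (2.17 ± 0.18 SE, adjusted p = 1.0e-05). Of 18 phagocytic and lysosomal genes 10 were higher and 3 lower, with the scavenger receptor Msr1 the furthest from 0, at 179, 275 and 342 in DMSO and 2153, 3163 and 2861 with LPS and DMF (3.39 ± 0.21 SE, adjusted p = 1.5e-06). The Fc receptors Fcgr1 and Fcgr2b rose by 1.22 and 1.38, and Lgmn and Gpnmb fell by 0.58 and 0.54. Msr1 and Adgre1 were not called between LPS with DMF and LPS (0.32, adjusted p = 0.23 and 0.33, adjusted p = 0.20). Both were called higher with the replicate block (adjusted p = 0.0028 and 0.0059).

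The largest falls belonged to genes of varied function. Atp7b, a copper-transporting ATPase (chr8:22482801-22550321 in GRCm39), had normalized counts of 11.9, 7.59 and 19.3 with LPS and DMF and 181, 205 and 218 in DMSO, a log2 change of -3.94 ± 0.28 (SE, adjusted p = 3.7e-06). Hdac9, a class IIa histone deacetylase, fell from 886, 744 and 789 to 120.2, 86.8 and 65.8 (-3.17 ± 0.18 SE, adjusted p = 9.9e-07) and lay below LPS alone, at -1.76 (adjusted p = 3.2e-04). Selenbp1, a selenium-binding protein, fell from 2735, 3710.3 and 2799 to 381, 548 and 396 (-2.8 ± 0.15 SE, adjusted p = 6.4e-07). Selenbp2 fell by 2.66, and since the pair is nearly identical in sequence their reads may be split between them. Il1r2, the decoy receptor for interleukin-1, fell from 240.3, 367 and 563 to 67.6, 74.8 and 56.5 (-2.46 ± 0.25 SE, adjusted p = 4.1e-05). Prtn3, a serine protease of myeloid cells, fell by 2.4 and was below LPS alone, at -1.62 (adjusted p = 7.0e-04). Lmcd1, Mpp2, Vwa1, Ldc1 and Zfp395 fell by 3.36, 3.07, 2.57, 3.85 and 2.34. Grin1, a glutamate receptor subunit, fell by 2.44 against DMSO but was higher than in LPS alone by 1.33 (adjusted p = 0.0035). LPS alone was also called below DMSO for each of these genes. Its log2 fold changes included -3.12 for Atp7b, -4.74 for Ldc1, -3.01 for Il1r2, -2.36 for Mpp2 and -2.15 for Selenbp1. Ldc1 was below a normalized count of 10 in each LPS library, so in LPS against DMSO it could only be called lower. It did not pass the filter between LPS with DMF and LPS and was not tested there. Atp7b, Mpp2, Selenbp2, Vwa1 and Il1r2 were not called between LPS with DMF and LPS (adjusted p = 0.11, 0.18, 0.14, 0.10 and 0.051). With the replicate block Il1r2 was called higher (adjusted p = 0.038).

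The same pair at 4 h shows how the difference from resting cells changed with exposure time. Either group can move such a difference, since the DMSO libraries also differed between the times. Atp7b at 4 h was 10.4, 25.1 and 6.09 in DMSO and 4.24, 14.9 and 15.7 in LPS with DMF, under size factors common to 12 libraries. At 24 h it was 181, 205 and 218 in DMSO and 11.9, 7.59 and 19.3 in LPS with DMF, under those of the pair. The difference at 24 h was not that at 4 h for 3016 of 11904 genes tested (25.3%) by the interaction term in limma over 12 libraries, with 1484 more positive at 24 h (12.5%) and 1532 more negative (12.9%). Of the 24 Nrf2 targets, 18 were more negative at 24 h and 0 more positive. The log2 fold change of Hmox1 was 3.63 at 4 h and -0.45 at 24 h, a difference of -4.09 (adjusted p = 4.1e-08). Srxn1, Gclm and Slc7a11 went from 3.97, 3.18 and 3.96 at 4 h to 1.03, 0.98 and 1.92 at 24 h. Fth1 did not differ detectably between the times (0.04, adjusted p = 0.92).

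**Figure D5:**
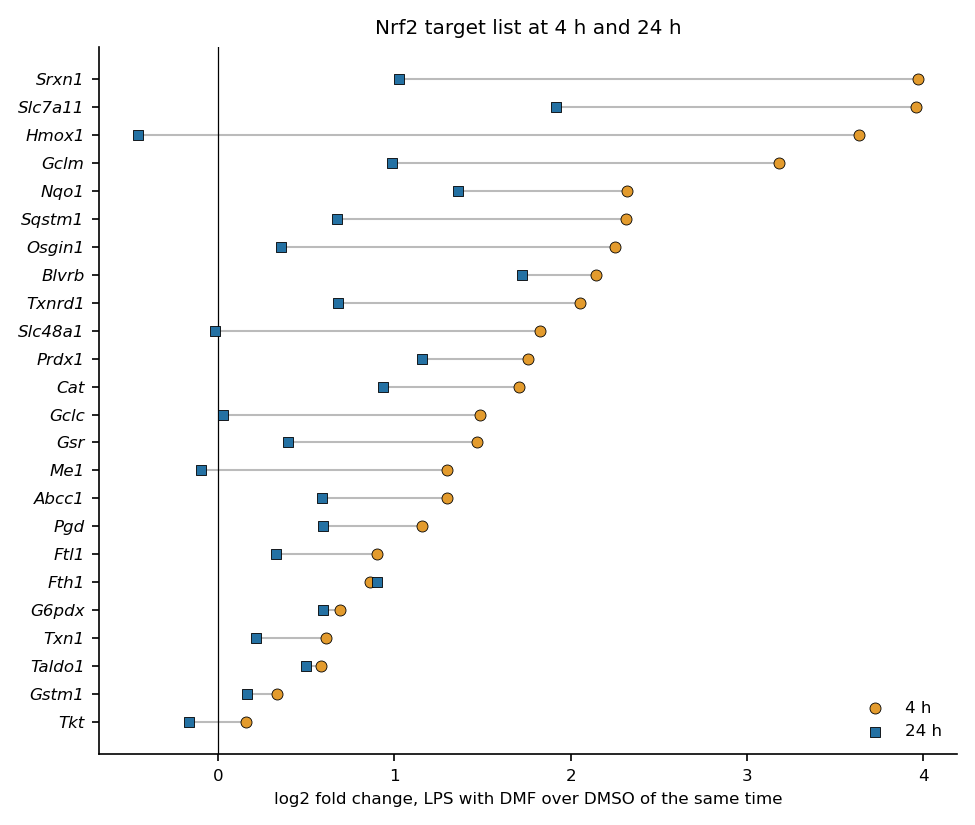
For each of the 24 Nrf2 targets, the log2 fold change of LPS with DMF over DMSO of the same time is given at 4 h (circles) and 24 h (squares), under size factors common to 12 libraries, and a line joins the times. Srxn1, Slc7a11 and Hmox1 lie highest at 4 h, and at 24 h Hmox1 lies below 0.

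Cytokines went the other way, with 11 of 15 more positive at 24 h and 1 more negative, Osm (-0.58, adjusted p = 0.017). The 11 include Il6, which passed the filter only with its LPS with DMF libraries at 24 h, so its direction was not free of the filter. The log2 fold change of Il1b was 3.49 at 4 h and 6.99 at 24 h, that of Lcn2 1.43 and 7.57, and that of Ccl7 0.44 and 4.42. Of 12 chemokines 3 were more positive at 24 h (Ccl2, Ccl7 and Ccl9) and 3 more negative. These were Cxcl2, Ccl3 and Ccl4, which were less raised over DMSO of the same time at 24 h, with differences of -1.26, -1.09 and -0.64. So was Ptgs2 (-1.05). Of the sterol genes 19 of 20 and of the cell division genes 17 of 18 were more negative at 24 h. Of the interferon genes 11 of 22 were more positive.

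MMF differs from DMF by the loss of a methyl ester group, and both were given at 30 µM for 24 h with the same LPS. In this 1 pair of compounds, 2508 of 11665 genes tested (21.5%) differed, 1173 higher in LPS with DMF (10.1%) and 1335 lower (11.4%), and 4639 with the replicate number as a block (18.5% higher and 21.3% lower). All 20 sterol genes and all 18 cell division genes tested were lower with DMF, with median differences of -1.36 and -0.68. Of the 16 ATF4 genes 10 were higher and 0 lower, and of the 15 cytokines 10 were higher and 1 lower. S100a8 was higher with DMF by 2.64 (adjusted p = 8.3e-04), Mmp3 by 2.67 (adjusted p = 9.9e-04) and Csf3 by 1.58 (adjusted p = 0.0049).

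In the Nrf2 list 4 of 24 genes were higher with DMF than with MMF and 4 lower (5 and 7 with the replicate block). Over all genes the shares were 10.1% and 11.4% (18.5% and 21.3% with the block). The counts of so short a list lie near these shares and are not read as a result about Nrf2 targets. Slc7a11 and Sqstm1 were higher by 0.73 (adjusted p = 0.014) and 0.95 (adjusted p = 9.4e-04), and Me1 and Slc48a1 were lower, at -0.76 (adjusted p = 0.0021) and -0.57 (adjusted p = 0.02). Txnrd1 and Cat were not called between the compounds, at 0.08 (unadjusted 95% interval -0.07 to 0.23) and 0.09 (unadjusted 95% interval -0.17 to 0.35). Lcn2 was not called either (0.10, unadjusted 95% interval -0.35 to 0.55), nor was Tnf (0.08, unadjusted 95% interval -0.07 to 0.24).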

How the data were processed

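RNA sequencing of BV-2 cells was deposited as 30 tables, 1 for each pair of groups, of which 7 were used here, together covering 19433 genes. Per the labels, the authors used FastQC 0.12.1, cutadapt 4.4, Trimmomatic 0.39, HISAT2 2.2.1, HTSeq 2.0.3 and DESeq2 1.40.2 in R 4.3.1 with the genome build GRCm39. The authors deposited a normalized signal per library, that is, read counts divided by DESeq2 size factors, beside columns of their own fold changes and p-values, which were not used. The strand setting of the counting is not given in the sources used here, so genes that overlap on opposite strands cannot be told apart. Dividing each library column by its unit step gave whole reads for 100% of 734166 values (within 0.01 read), and 0 of 304884 values shared between tables differed. The depth was 14110424 to 22774814 counted reads for the 6 main libraries, which limits the precision of genes with few reads. Replicates were checked for copies, and their counts differed by a chi-square of at least 4.65 per degree of freedom. limma 3.58.1 (lmFit and eBayes with a trend) in R 4.3.3 was run on log2 of the normalized count plus a pseudocount of 1, which understates the change of low genes, for genes with a value of at least 10 in 3 libraries or more, with Benjamini-Hochberg adjustment over all genes tested and two-sided tests. The difference between times was an interaction term over 12 libraries from the recovered reads. Count tests on the recovered reads used edgeR 4.0.16 (quasi-likelihood) and DESeq2 1.42.0 as alternatives, and the scripts were tested on simulated data. Replicates are libraries that the labels number separately, so p-values measure the spread between 3 libraries a group. Same-numbered libraries deviated together, with correlations across 10099 genes of 0.33, 0.51 and 0.21 between LPS with DMF and LPS and of 0.43, 0.59 and 0.21 between LPS with DMF and LPS with MMF, so the replicate number was also used as a block there. Differently numbered libraries gave -0.38 to 0.08 and -0.49 to 0.25. The 0.25, of LPS with DMF replicate 1 and LPS with MMF replicate 3, exceeded the 0.21 of number 3, so a match of number 3 is not shown there. Genes named are the 12 largest rises and 12 largest falls among called protein-coding genes whose higher group averaged 50 or more and whose groups did not overlap, and the members of 26 lists (367 entries, 361 matched, 327 tested). Some list members are counted but not reported here by name. Promoter windows come from RefSeq on GRCm38.p6, a build other than that of the counts, so the coordinates given with them are those of GRCm38.p6. The comparisons, lists and tests were chosen with earlier results of these data known. Alternatives changed the pseudocount, filter, fold limit, scaling, tool, libraries fitted, block, GC and length trend, and left out each library in turn.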

Additional observations from a re-analysis of the deposited data

Results flagged for a closer look

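The difference between LPS with DMF and DMSO was not the same at 24 h as at 4 h for 3016 genes, by the interaction term in limma over 12 libraries at a Benjamini-Hochberg adjusted p below 0.05. Given here are the genes with the largest rises or falls at 24 h that passed this test, and those list members reported by name that were called at both times in opposite directions. Each value is the log2 fold change at 24 h minus that at 4 h, under size factors common to the 12 libraries. A change of the DMSO libraries between the times moves it as much as a change of the LPS with DMF libraries. Among the largest rises, the difference was Csf3 3.78 (from 4.76 at 4 h to 8.53 at 24 h), Lcn2 6.13 (from 1.43 at 4 h to 7.57 at 24 h), Il1b 3.49 (from 3.49 at 4 h to 6.99 at 24 h) and Il1a 2.51 (from 3.54 at 4 h to 6.05 at 24 h). It was S100a8 4.59 (from 0.96 at 4 h to 5.55 at 24 h), Il6 3.88 (from 1.31 at 4 h to 5.18 at 24 h) and Ccl7 3.98 (from 0.44 at 4 h to 4.42 at 24 h), and 5.4 (from 0.35 at 4 h to 5.75 at 24 h) for Urah, whose fold change is set by the pseudocount. Cxcl2 was the one largest riser that was nearer to resting cells at 24 h than at 4 h, with -1.26 (from 5.7 at 4 h to 4.44 at 24 h). At 4 h its counts were 132, 233 and 120 in DMSO and 8960, 10605 and 5556 in LPS with DMF. Under the size factors of the 24 h pair they were 630, 970 and 720 in DMSO and 11547, 19522 and 20407 in LPS with DMF, so both groups were higher. Among the largest falls it was Atp7b -3.75 (from -0.20 at 4 h to -3.95 at 24 h), Lmcd1 -3.63 (from 0.27 at 4 h to -3.36 at 24 h), Hdac9 -1.91 (from -1.27 at 4 h to -3.18 at 24 h), Mpp2 -2.69 (from -0.38 at 4 h to -3.07 at 24 h) and Selenbp1 -1.72 (from -1.09 at 4 h to -2.82 at 24 h). It was Selenbp2 -1.91 (from -0.76 at 4 h to -2.67 at 24 h), Vwa1 -2.48 (from -0.09 at 4 h to -2.58 at 24 h), Il1r2 -1.97 (from -0.50 at 4 h to -2.47 at 24 h) and Prtn3 -1.98 (from -0.43 at 4 h to -2.41 at 24 h).

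Several list members lay on opposite sides of resting cells at the 2 times. Sterol genes above DMSO at 4 h and below it at 24 h were Idi1 -1.36 (from 0.45 at 4 h to -0.91 at 24 h) and Sqle -1.05 (from 0.25 at 4 h to -0.80 at 24 h), together with Cyp51 -1.51 (from 0.35 at 4 h to -1.16 at 24 h), Msmo1 -1.1 (from 0.31 at 4 h to -0.79 at 24 h) and Hsd17b7 -1.75 (from 0.31 at 4 h to -1.44 at 24 h). The cholesterol exporters had the reverse order, Abca1 1.43 (from -0.72 at 4 h to 0.71 at 24 h) and Abcg1 1.13 (from -0.36 at 4 h to 0.78 at 24 h), while Apoe -0.87 (from 0.40 at 4 h to -0.47 at 24 h) and Plin2 -0.64 (from 0.28 at 4 h to -0.36 at 24 h) followed the sterol genes. Microglial genes below DMSO at 4 h and above it at 24 h were P2ry13 2.99 (from -1.8 at 4 h to 1.19 at 24 h), Tmem119 2.39 (from -1.38 at 4 h to 1.01 at 24 h) and Ptprc 0.79 (from -0.34 at 4 h to 0.45 at 24 h), with the Fc receptors Fcgr1 1.96 (from -0.75 at 4 h to 1.21 at 24 h) and Fcgr3 0.80 (from -0.41 at 4 h to 0.39 at 24 h). Genes of antigen presentation, Tap1 1.32 (from -0.64 at 4 h to 0.68 at 24 h) and Nlrc5 0.92 (from -0.31 at 4 h to 0.61 at 24 h), and the cell cycle factor E2f2 0.95 (from -0.36 at 4 h to 0.60 at 24 h) had the same order. Stress genes above DMSO at 4 h and below it at 24 h were Hmox1 -4.09 (from 3.63 at 4 h to -0.45 at 24 h), Mt1 -0.76 (from 0.35 at 4 h to -0.40 at 24 h) and Hsp90b1 -0.48 (from 0.23 at 4 h to -0.25 at 24 h). The cause of these differences between times was not tested.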

How the results depend on the processing

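For LPS with DMF against DMSO at 24 h, the 4685 calls stayed within 1.5 times under each alternative but a minimum fold, and leaving out 1 library at a time gave 3382 to 4623. edgeR on the recovered reads called 4706 and DESeq2 4333. With an absolute log2 fold change above 1, the calls were 752 (484 higher, 268 lower), 323 against LPS (208 and 115), 237 against LPS with MMF (162 and 75), 516 for LPS against DMSO (322 and 194, a share of higher calls within 10 points of that without the limit) and 756 for 24 h minus 4 h (511 and 245). No paired analysis was possible for LPS with DMF against DMSO because these groups share no replicate number. With the replicate block, the calls went from 2926 to 4566 against LPS and from 2508 to 4639 against LPS with MMF. Leaving out 1 library gave 1322 to 3348 calls against LPS, with 1738 without LPS with DMF replicate 2, 1322 without its replicate 3 and 1614 without LPS replicate 3. Against LPS with MMF it gave 955 to 2956, with 1461 and 955 without LPS with DMF replicate 2 and 3, and 1426 and 1281 without LPS with MMF replicate 1 and 3. For LPS against DMSO it gave 1649 to 2780, with 1649 when LPS replicate 3 was dropped, and 1705 and 1749 when DMSO replicate 5 and 6 were, and for 24 h minus 4 h 2312 to 3166. The cause of these changes was not tested. The 24 genes with the largest changes kept their call and direction in each alternative that tested them. Csf3, Il6, Il36a, Mmp3 and Urah did not pass the filter without an LPS with DMF library, so their dependence on any 1 of these libraries was not tested. Calls of other named genes (Hmox1 is given with its result) were lost for B2m without LPS with DMF replicate 2 or 3 or with GC and length removed, Ddit4 by DESeq2, Ftl1 without LPS with DMF replicate 2 or 3 or DMSO replicate 4 or 6 or with GC and length removed, Ltb in the fit of 18 libraries, Mbp without LPS with DMF replicate 1 or 3 or DMSO replicate 5 or 6 or the filter or in the fit of 18 libraries or with GC and length removed, Pfkfb3 without LPS with DMF replicate 2 or DMSO replicate 4 or in the fit of 18 libraries, Tkt without LPS with DMF replicate 2 or 3 or DMSO replicate 4 or 5 or 6 or the filter or by edgeR or by DESeq2 or in the fit of 18 libraries or with GC and length removed and Tnfsf9 with GC and length removed. Calls were gained for Bub1b without LPS with DMF replicate 1, Cdh5 without LPS with DMF replicate 2 or by edgeR or in the fit of 18 libraries, Cdkn1a without LPS with DMF replicate 1 or with GC and length removed, Cx3cr1 without DMSO replicate 6, Ddit3 without LPS with DMF replicate 1, H2-K1 without LPS with DMF replicate 1, Hp without DMSO replicate 5, Ikbkb in the fit of 18 libraries or with GC and length removed, Irf1 without LPS with DMF replicate 1 or DMSO replicate 5 and Osgin1 without LPS with DMF replicate 1 or by edgeR or by DESeq2 or in the fit of 18 libraries or with GC and length removed. The genes whose fold change over DMSO turned sign were not called in any of those fits. Fasn, at -0.0545, was 0.11 with the GC and length trend removed. Gclc, at 0.0421, was between -0.0129 and 0.0732 without 1 library. Kdr, at -0.0981, was between -0.187 and 0.0255 without 1 library. Me1, at -0.0825, was between -0.211 and 0.0687 without 1 library. Slc48a1, at -0.00721, was 0.000281 by edgeR and between -0.105 and 0.103 without 1 library. Srebf1, at -0.0048, was 0.00203 by edgeR, 0.117 with the GC and length trend removed and between -0.0543 and 0.0254 without 1 library. Trem2, at 0.0825, was between -0.114 and 0.196 without 1 library. Tyms, at 0.00192, was -0.0309 with the GC and length trend removed and between -0.0501 and 0.0789 without 1 library. Of the lists, TCA cycle went from 7 calls to 4 without LPS with DMF replicate 2 or DMSO replicate 4 or 6, G1 cyclins and inhibitors from 8 to 5 without LPS with DMF replicate 2, the 1 oligodendrocyte call (Mbp) to 0 in each fit that lost it, and endothelial markers from 1 call to 2 by edgeR, in the fit of 18 libraries and without LPS with DMF replicate 2. With an absolute log2 fold change above 1, 18 lists fell by more than 1.5 times, among them LPS sensing and feedback from 13 to 6, NF-kB factors and inhibitors from 14 to 8, antigen presentation and costimulation from 13 to 5, Nrf2 targets from 19 to 5, ATF4 stress response from 12 to 3, sterol synthesis and uptake from 19 to 12, phagocytic and lysosomal proteins from 13 to 4, cell division from 17 to 1, DNA replication from 15 to 0 and glycolysis from 12 to 0.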
